A study of Mus musculus with 6 samples.

Results

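The genes described here code for the kainate receptors and their auxiliary Neto proteins. They are Grik1, Grik2, Grik3, Grik4, Grik5, Neto1 and Neto2, picked by symbol in the GENCODE M21 annotation of GRCm38, and they make up 7 of the 36008 genes in the deposited gene table and 40 of the 116710 transcripts matched to that annotation. The data are RNA-seq of bulk hippocampus from 3 WT and 3 Prmt9 KO mice, all female, of strain B6J and 2 weeks old. The Prmt9 KO mice carry a germline deletion of the floxed exon 5 of Prmt9 made with CMV-Cre, so the gene is lost in every tissue, and the WT mice are littermates of the same sex. PRMT9 methylates the splicing factor SF3B2, and the comparison of the genotypes asks whether the level or the splicing of mRNAs differs without it.

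Kainate receptors are tetrameric cation channels opened by glutamate. GluK1, GluK2 and GluK3, the products of Grik1, Grik2 and Grik3, bind kainate with low affinity and can form channels on their own, whereas GluK4 and GluK5, the products of Grik4 and Grik5, bind with high affinity and reach the surface only in complex with a low-affinity subunit. NETO1 and NETO2 are membrane proteins with CUB domains that bind the receptors and slow their closing. In hippocampus the receptors are best known at mossy fibre synapses onto CA3 pyramidal cells, where they carry a slow synaptic current and act on release from the presynaptic side, and GluK1 is known from interneurons.

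Splicing of Grik1 and Grik2 changes the protein. The segments below are some of those by which annotated transcripts of these genes differ and whose inclusion is described further on, printed 5′ to 3′ on the strand of the gene from the annotated transcripts of GRCm38, with the alternative segment in capitals and 15 transcript bases on the sides that have them in lower case. The first Grik1 exon lies in the extracellular amino-terminal part of GluK1 and has 45 bases (chr16:87955289-87955333, reverse strand). The second Grik1 exon has 87 bases (chr16:87896809-87896895, reverse strand), lies in the part that codes for the cytoplasmic tail and is kept in Grik1-202. The Grik2 exon also has 87 bases (chr10:49104979-49105065, reverse strand), of which the first 45 end the reading frame of Grik2-204 and are shown, a tail known as GluK2b. The Neto2 segment is an alternative 5′ splice site extension of 21 bases in Neto2-205 (chr8:85663387-85663407, reverse strand). The Grik5 exon of 244 bases (chr7:25061096-25061339, reverse strand) is held by Grik5-207, a transcript annotated for nonsense-mediated decay, and its first 123 bases, up to the end of the annotated frame, are shown.
Grik1 exon of 45 bases: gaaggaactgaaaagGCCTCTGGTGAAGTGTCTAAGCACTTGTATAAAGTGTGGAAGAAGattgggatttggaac
Grik1 exon of 87 bases: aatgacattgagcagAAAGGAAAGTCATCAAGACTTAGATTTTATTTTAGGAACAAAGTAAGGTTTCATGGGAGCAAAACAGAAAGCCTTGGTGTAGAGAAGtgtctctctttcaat
Grik2 exon, coding part: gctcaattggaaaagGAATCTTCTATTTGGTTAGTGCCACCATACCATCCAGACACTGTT
Neto2 segment of 21 bases: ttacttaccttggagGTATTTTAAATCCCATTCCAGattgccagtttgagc
Grik5 exon, coding part: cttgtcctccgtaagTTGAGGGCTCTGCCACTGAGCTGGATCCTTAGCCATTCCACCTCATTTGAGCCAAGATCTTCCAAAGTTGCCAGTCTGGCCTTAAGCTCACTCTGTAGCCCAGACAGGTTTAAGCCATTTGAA

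The lengths of 45, 87 and 21 bases leave no remainder after division into codons, whereas 244 bases leave a remainder of 1. The Grik1 and Grik2 exons of 87 bases have the same length but only 27 of 87 bases in common when set side by side without gaps, or 31.0%.

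The estimated counts summed to between 194098391 and 286771677 per mouse. WT replicate 1 and Prmt9 KO replicate 1 stood apart from the other 4 mice in gene counts, along a first principal component with 67.4% of the variance, and 37.4% of transcripts had no count in WT replicate 1 against 22.8% to 24.8% in the other 5. Marker genes of hippocampal excitatory neurons, dentate granule cells, CA1, CA3 and interneurons were present in every mouse, and no marker of any of the 13 lists was at 0 in any mouse. The 5 oligodendrocyte markers summed to 1946 TPM in WT replicate 1 and 999 TPM in Prmt9 KO replicate 1, below the 7822 to 11388 TPM of the other mice, and all 5 were lower in both. Choroid plexus markers summed to 7249 TPM in WT replicate 1 and to 607 to 3327 TPM in the other 5. Ttr, at 7157 TPM, and Folr1 were highest in WT replicate 1, whereas Kl and Clic6 were not. Endothelial markers summed to 129.3 and 112.9 TPM in the mice numbered 1 against 66.2 to 81.3 TPM. Of these 3 genes, Cldn5 was higher in both, at 107.2 and 89.2 TPM against 37.1 to 45.2 TPM. Flt1 was lower in both, at 7.19 and 7.89 TPM against 14.8 to 20.5 TPM, and Pecam1 overlapped. Transcripts under 1000 bases held 46.6% and 41.7% of all TPM in WT replicate 1 and Prmt9 KO replicate 1 against 38.4% to 39.2%, and retained-intron transcripts held 5.70% and 6.45% against 7.31% to 7.68%. The 3 dentate granule cell markers were also lower in both, with sums of 32.2 and 28.0 TPM against 56.0 to 61.4 TPM. In bulk tissue, fewer cells of a type and less RNA per cell cannot be told apart. Prmt9 itself was at 11.8, 15.2 and 14.96 TPM in the WT mice and at 3.93, 4.61 and 4.67 TPM in the Prmt9 KO mice, so the labels and the level of the targeted gene matched in 6 of 6 mice.

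Grik5 was by far the most abundant member. Per unit of transcript length, its level lay between 133.8 and 172.2 TPM (transcript abundance scaled for length and depth) in the 6 mice, above that of Neto1 in 6 of 6 mice and at the 95.1 percentile of the genes tested. Neto1 followed in the WT means, then Grik4, Grik2, Neto2, Grik3 and Grik1, and these neighbours in the order overlapped in their ranges over the 6 mice. In the 4 mice not numbered 1, the order was sharper. There, Neto1 was at 70.8 to 85.7 TPM, above Grik4 at 32.8 to 34.8 TPM, whereas Grik4 and Grik2, at 32.5 to 35.4 TPM, could not be ranked. Neto2, at 13.3 to 16.3 TPM, and Grik3, at 14.0 to 14.9 TPM, could not be ranked either, and Grik1 was lowest at 11.5 to 12.9 TPM.

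**Figure D1:**
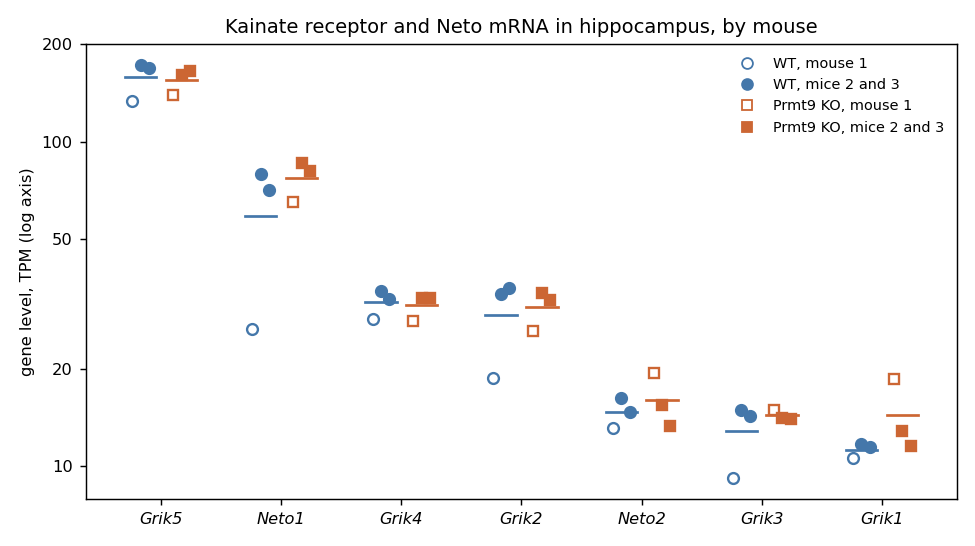
Gene level in TPM on a log axis for each of the 7 genes, ordered by the WT mean, with 1 point per mouse and a bar at the mean of each genotype; open points are the mice numbered 1. Grik5 lies above all other genes in every mouse, and WT replicate 1 is the lowest WT mouse in TPM for each gene, farthest from the others for Neto1. In normalized counts, WT replicate 1 was instead the highest WT mouse for Grik1, Grik4, Grik5 and Neto2.

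The low-affinity subunits differed in how they varied between mice. Grik1 (chr16:87895900-88290265, reverse strand), whose product is modulated by NETO proteins, was at 10.6, 11.7 and 11.5 TPM in the WT mice and at 18.6, 12.9 and 11.6 TPM in the Prmt9 KO mice. The value of 18.6 TPM in Prmt9 KO replicate 1 was the highest, and the groups overlapped. In normalized counts (CPM, scaled to library size with TMM factors), the log2 fold change of Grik1 was 0.28 (SE 0.24, 95% interval -0.30 to 0.87, edgeR adjusted p = 1.0). Without Prmt9 KO replicate 1 it became -0.02, and without both mice numbered 1 it was 0.07.

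Grik2 (chr10:49094833-49788766, reverse strand), whose product is the main low-affinity subunit of mossy fibre receptors, was at 18.8, 33.9 and 35.4 TPM in WT and at 26.2, 34.1 and 32.5 TPM in Prmt9 KO mice. The lowest value of each genotype was that of the mouse numbered 1. Its log2 fold change was 0.05 (SE 0.17, 95% interval -0.35 to 0.46, edgeR adjusted p = 1.0), and without both mice numbered 1 it was -0.03. Grik3 (chr4:125490700-125714173, forward strand), which codes for a subunit of very low glutamate sensitivity, was at 9.19, 14.9 and 14.3 TPM in WT and at 14.9, 14.1 and 14.0 TPM in Prmt9 KO mice. WT replicate 1 alone was low. The log2 fold change of Grik3 was 0.11 (SE 0.13, 95% interval -0.20 to 0.43, edgeR adjusted p = 1.0), and without both mice numbered 1 it was -0.06.

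The high-affinity subunits had the narrowest ranges of the 7 genes in log2 CPM. Grik4 (chr9:42518135-42944493, reverse strand), whose mRNA is known from CA3 and the dentate gyrus, was at 28.5, 34.8 and 32.8 TPM in WT and at 28.0, 32.9 and 32.9 TPM in Prmt9 KO mice. Its log2 fold change was -0.11 (SE 0.09, 95% interval -0.33 to 0.11, edgeR adjusted p = 1.0). Grik5 (chr7:25009849-25072346, reverse strand) was at 133.8, 172.2 and 168.2 TPM in WT and at 138.9, 160.6 and 164.6 TPM in Prmt9 KO mice, so the TPM of the groups overlapped. In CPM, Grik5 was at 317.9, 301.9 and 289.4 in WT and at 273.0, 283.65 and 286.3 in Prmt9 KO mice, so every Prmt9 KO mouse lay below every WT mouse, which 3.16% of the 20335 genes tested did. It was the only member of 7 whose CPM did not overlap between the groups, against 7.01% of the genes tested in either direction. The log2 fold change of Grik5 was -0.11 (SE 0.09, 95% interval -0.33 to 0.12, edgeR adjusted p = 1.0), and without both mice numbered 1 it was -0.05.

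The ratio of Grik5 to Grik4 TPM changed little between mice, from 4.69 to 5.13, with means of 4.92 ± 0.22 and 4.94 ± 0.06 for WT and Prmt9 KO (SD, n = 3 each, two-sided exact permutation test, p = 0.8). Grik5 made up 65.0% ± 1.4 of the summed TPM of the 5 receptor genes in WT mice and 62.9% ± 1.6 in Prmt9 KO mice (SD, n = 3 each, two-sided exact permutation test, p = 0.3). Grik4 and Grik5 together made up 73.7% to 80.8% in the 6 mice. The mRNA of the subunits that need a partner thus outnumbered that of the subunits that can form channels alone in every mouse. Among Grik1, Grik2 and Grik3, Grik2 held 54.2% ± 4.9 of the TPM in WT mice and 51.9% ± 6.9 in Prmt9 KO mice (SD, n = 3 each, two-sided exact permutation test, p = 0.5). With 3 mice against 3, the smallest p that the exact test allows is 0.1.

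Neto1 (chr18:86394952-86506718, forward strand), whose product is required for the slow kainate current of CA3 cells, was at 26.5, 79.8 and 70.8 TPM in WT and at 65.1, 85.7 and 81.0 TPM in Prmt9 KO mice. WT replicate 1 lay far below the other 5. In CPM, the 6 mice lay much closer, at 129.3, 154.8 and 145.1 in WT and at 150.6, 159.3 and 147.2 in Prmt9 KO mice. The gap between the scales rested in large part on 2 short transcripts of Neto1 that carry few counts and much TPM. Neto1-201, of 8352 bases, held 94.7% to 99.5% of the estimated counts of Neto1 in every mouse. Its own level was 22.5 TPM in WT replicate 1 and 29.5 to 34.0 TPM in the other 5 mice, so the short transcripts did not hold all of the gap. Neto1-202, an incomplete annotated transcript of 527 bases, was at 0.916 TPM in WT replicate 1 and at 23.7 to 28.3 TPM in the other 5, and Neto1-203, of 384 bases, was at 3.14 TPM there and at 8.69 to 23.4 TPM in the others. The log2 fold change of Neto1 was 0.09 from counts, (SE 0.11, 95% interval -0.17 to 0.35, edgeR adjusted p = 1.0), and 0.52 from log2(TPM + 1).

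Neto2 (chr8:85636588-85700924, reverse strand), whose product also binds the potassium chloride cotransporter KCC2, was at 13.1, 16.3 and 14.7 TPM in WT and at 19.4, 15.4 and 13.3 TPM in Prmt9 KO mice. The groups overlapped, with the highest and the lowest TPM both in mice numbered 1. In CPM, Neto2 was highest in the mice numbered 1, at 44.3 in WT and 54.4 in Prmt9 KO, against 31.8 to 37.4 in the others. Its log2 fold change was 0.09 (SE 0.22, 95% interval -0.45 to 0.63, edgeR adjusted p = 1.0). It was -0.16 without Prmt9 KO replicate 1 and -0.05 without both mice numbered 1. Neto2 lies on chromosome 8 at a distance of 8.06 Mb from Prmt9, the locus altered in these mice. The ratio of Neto1 to Neto2 was 2.02 in WT replicate 1, 3.36 in Prmt9 KO replicate 1 and 4.82 to 6.08 in the other 4 mice by gene TPM. With Neto1-201 alone against the coding Neto2 transcripts, the same ratio lay between 1.54 and 2.42 in the 6 mice.

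A gene was called where the adjusted p fell below 0.01 and the change exceeded 1.5-fold. None of the 7 genes was called, and 0 of the 20335 genes tested, or 0%, were called in edgeR's quasi-likelihood test, with 251 genes (1.23%) at an unadjusted p below 0.05. Prmt9 kept an adjusted p of 0.0327 in edgeR, above the limit of 0.01. None of the 7 was among the 251. The DESeq2 Wald test called 2 of all genes and limma on log2(TPM + 1) called 0, with no member among them. The median log2 fold change of the 7 was 0.09, with values from -0.11 to 0.28, beside a median of -0.01 over all genes tested. The 95% intervals leave room for changes of between 0.73 and 0.89 times on the low side and between 1.08 and 1.83 times on the high side. Between mice of the same number, 2 of the 7 genes, Grik5 and Neto1, differed in one direction in 3 of 3 pairs, against 32% of genes tested.

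**Figure D2:**
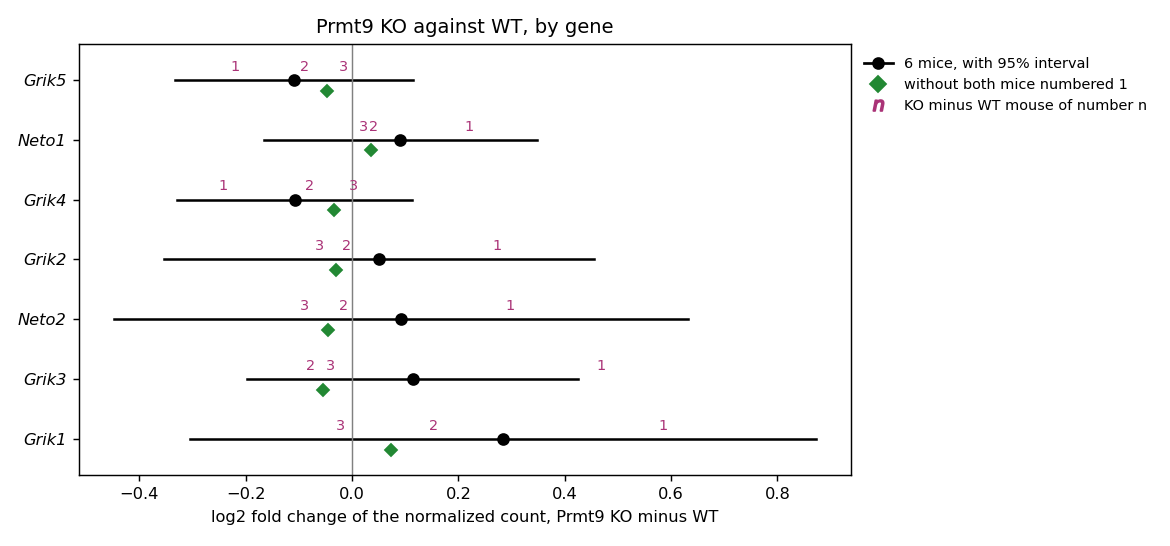
Log2 fold change of the normalized count, Prmt9 KO minus WT, for each gene, with the 95% interval of the 6-mouse fit (black), the fit without both mice numbered 1 (green) and the difference between mice of the same number (digits). All 7 intervals span 0, and the pair numbered 1 gave the difference farthest from 0 for each of the 7 genes.

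Transcript shares were followed as the percentage of a gene's TPM, for 16 transcripts with a mean share of at least 10% in either genotype. Grik3 has a single annotated transcript and Grik4 has 2 that code for the same number of bases, 2868. The shares of Grik4-201 were 78.6%, 77.7% and 78.5% in WT and 77.6%, 78.3% and 77.9% in Prmt9 KO mice, the steadiest of the 6 genes with more than 1 transcript. Among the 16 shares, 1 did not overlap between the genotypes, against 9.94% of the 30623 shares of this size over all genes. Without both mice numbered 1, 8 of the 16 did not overlap, against 42.3%.

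Grik1 transcripts, which differ in the cassette exons printed above, varied between mice. Grik1-202, which holds the 87-base tail exon, had shares of 48.8%, 31.3% and 32.2% in WT and of 36.2%, 25.6% and 24.7% in Prmt9 KO mice. Grik1-201, which lacks both Grik1 exons printed above, had shares of 0%, 17.97% and 16.3% in WT and of 12.5%, 26.3% and 29.6% in Prmt9 KO mice. Grik1-211, which holds the 45-base exon alone, had shares of 31.4%, 21.6% and 27.6% in WT and of 30.2%, 20.1% and 18.1% in Prmt9 KO mice. Within each number, the Prmt9 KO mouse had the lower share of Grik1-202 and of Grik1-211 and the higher share of Grik1-201, but the genotypes overlapped for all 3. The exact permutation test gave two-sided p-values of 0.3 for Grik1-202, 0.3 for Grik1-201 and 0.4 for Grik1-211. WT replicate 1 lists Grik1-201 at 0 TPM where the other 5 mice had 1.87 to 3.43 TPM. Grik1-209, which would join both exons in 1 transcript, was at or near 0 in every mouse.

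Grik2 was read mainly as its long form. The transcripts with 2724 coding bases, Grik2-202 and Grik2-207, which code for the long tail known as GluK2a, held a mean of 59.5% ± 3.7 of Grik2 TPM in the WT mice and 59.3% ± 4.0 in the Prmt9 KO mice (SD, n = 3 each, two-sided exact permutation test, p = 1.0). Those with 2607 coding bases, Grik2-201 and Grik2-204, held 9.75% ± 4.62 and 9.72% ± 4.62 (SD, n = 3 each). Of these, Grik2-201 was at 0 TPM in both mice numbered 1 and at 0.0003 TPM in Prmt9 KO replicate 3, against 1.35 to 2.27 TPM in the other mice. Thus the long form was the main coding form of Grik2 in every mouse. Grik2-203, annotated as a retained intron, held 14.3%, 18.1% and 17.2% in WT and 16.5%, 19.2% and 20.5% in Prmt9 KO mice (exact permutation test, two-sided, p = 0.3). Within each number, the Prmt9 KO mouse had the higher share of Grik2-203, by 2.21, 1.04 and 3.28 percentage points. Grik2-209, of 1542 bases and incomplete at its start, also holds the 87-base exon. With 925 coding bases, it is not counted among the transcripts with 2607, whose shares thus leave out part of the transcripts with that exon. Grik2-209 held 11.8% and 10.8% in the mice numbered 1 of WT and Prmt9 KO, against 2.78% to 5.23% in the other 4. Retained-intron transcripts held 15.3% to 20.5% of Grik2 TPM and 10.3% to 16.0% of Grik1 TPM in the 6 mice.

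The one share that did not overlap belonged to Grik5-207, the transcript with the 244-base exon that is annotated for nonsense-mediated decay. It held 15.6%, 14.9% and 14.3% of Grik5 TPM in WT and 12.3%, 13.7% and 12.9% in Prmt9 KO mice. Every Prmt9 KO mouse lay below every WT mouse, with means of 14.93% ± 0.64 and 12.96% ± 0.66 (SD, n = 3 each, two-sided exact permutation test, p = 0.1). Its level was 17.1 to 25.6 TPM in the 6 mice, above the gene level of Grik1 in 5 of them. Grik5-201, the only protein-coding transcript of Grik5, held 73.9%, 67.4% and 65.96% in WT and 71.1%, 67.6% and 70.3% in Prmt9 KO mice, and these overlapped. The usage of Grik5-207 relative to the rest of the gene had a log2 difference of -0.14 (edgeR diffSpliceDGE, adjusted p = 1.0).

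In the shares of Neto1-201 and Neto1-202, WT replicate 1 lay far from the other 5 mice. Neto1-201 held 84.7% of Neto1 TPM in WT replicate 1 and 39.4% to 45.3% in the other 5 mice. Neto1-202 held 3.45% in WT replicate 1 and 30.6% to 41.4% in the others. Neto1-203 held 11.9%, 27.6% and 21.98% in WT and 13.4%, 27.3% and 26.8% in Prmt9 KO mice. Its share was thus lowest in the mice numbered 1 of both genotypes. For Neto2, the mice numbered 1 stood apart in both genotypes. Neto2-201 held 74.2%, 46.0% and 44.7% of Neto2 TPM in WT and 58.1%, 49.1% and 52.9% in Prmt9 KO mice. Neto2-205, which carries the 21-base extension, held 21.5%, 39.9% and 33.8% in WT and 22.5%, 34.0% and 32.4% in Prmt9 KO mice. In both genotypes the mouse numbered 1 had the highest share of Neto2-201 and the lowest of Neto2-205. Neto2-203 held 4.25%, 10.9% and 17.4% in WT and 18.4%, 15.7% and 13.7% in Prmt9 KO mice. There, the mouse numbered 1 was the lowest in WT and the highest in Prmt9 KO. The oligodendrocyte and granule cell markers given above were lower in the same 2 mice, and their part in these shares was not tested.

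**Figure D3:**
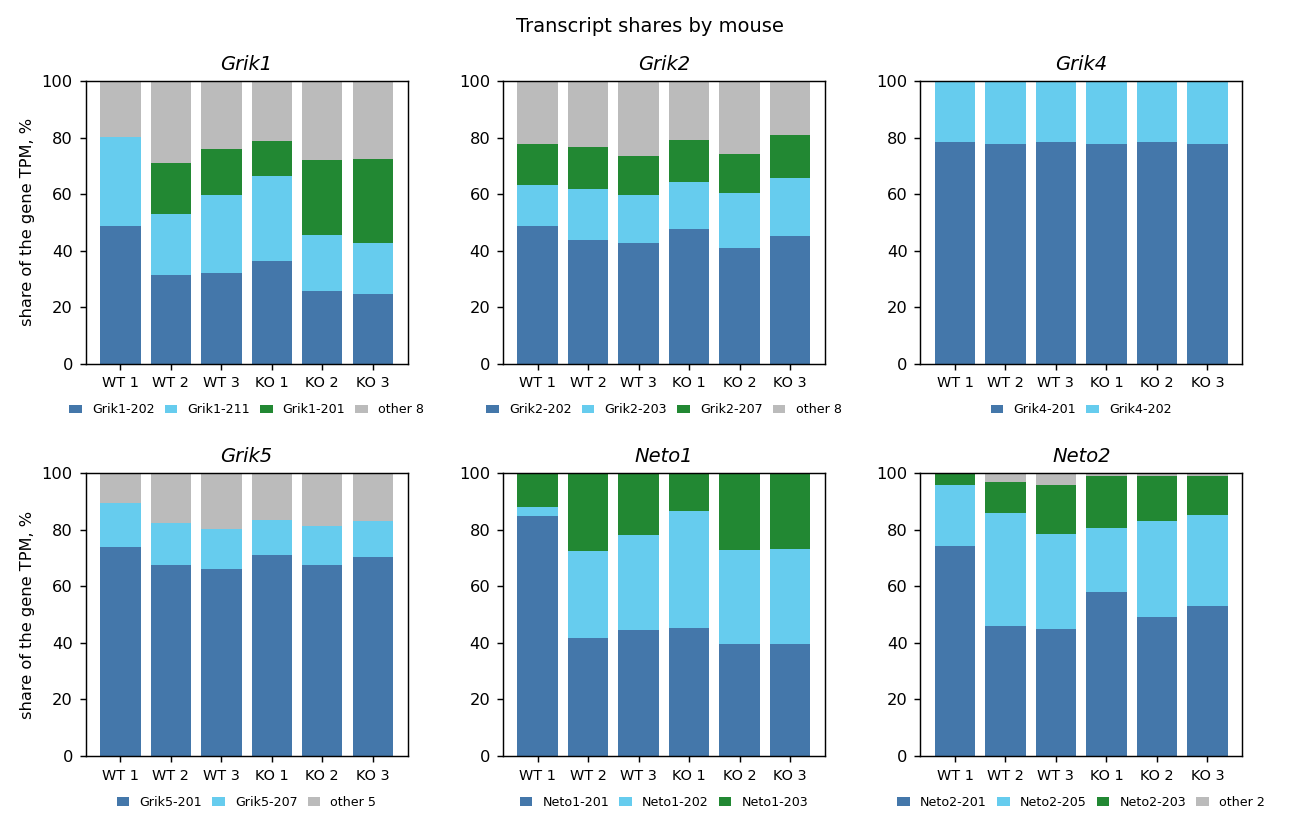
Share of the gene TPM held by each transcript in each mouse, for the 6 genes with more than 1 annotated transcript. Grey is the sum of the transcripts with a mean share under 10% in both genotypes, some of which pass 10% in single mice. Grik4 bars are alike in all 6 mice, and the WT 1 bar differs from the others in Grik1, Neto1 and Neto2.

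Of the 40 transcripts, 34 passed the filter of the usage test and 0 had an unadjusted p below 0.05 in edgeR's diffSpliceDGE, against 1.02% of the 69064 transcripts tested, and 1 transcript, Grik1-203, was at 0 TPM in every mouse. The 6 genes with more than 1 transcript had no call at an adjusted p below 0.01, against 22 of 13561 genes (0.162%), or 12 genes with the replicate number as a block, and limma diffSplice called 3 genes, none of them a member. Usage of Neto2 came closest when WT replicate 1 was left out, where edgeR gave an adjusted p of 0.0124, and that of Grik2 when Prmt9 KO replicate 2 was left out (adjusted p = 0.0584 in edgeR). In each setting that kept all 6 mice, the adjusted p of these genes lay between 0.99 and 1.0.

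The annotation gives 15 splicing events in the 7 genes, 6 of them in Grik2 and 0 in Grik3 or Grik4. PSI, the proportion spliced in, was the TPM of the transcripts that include a segment divided by the TPM of those that include or skip it. Of the 15 events, 10 had enough TPM and a PSI away from 0 and 1, and 0 of the 10 passed an adjusted p of at most 0.01 with a PSI difference of at least 0.05 in limma, as 0 of 24072 events (0%) did. None of the 10 had an unadjusted p below 0.05, against 770 events (3.2%) over all genes. With the replicate number as a block in limma, 2 of the 10 did, the 87-base exon of Grik1 and the 139-base exon of Grik2, against 5.16% of all events, and both had an adjusted p of 0.76. Without both mice numbered 1, 3 of the 10 did, the same Grik1 exon and a pair of Grik2 events between minor transcripts, against 9.89%. Of the 10 events, 2 did not overlap between the genotypes, against 10.7% of all events.

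The 87-base exon of Grik1 had PSI values of 0.609, 0.441 and 0.423 in WT and of 0.459, 0.355 and 0.341 in Prmt9 KO mice. The genotypes overlapped because Prmt9 KO replicate 1 lay above 2 of the WT mice, and the mouse numbered 1 was the highest of each genotype. The means were 0.491 ± 0.102 for WT and 0.385 ± 0.064 for Prmt9 KO (SD, n = 3 each), with no call (limma adjusted p = 1.0). Between mice of the same number, PSI differed by -0.150, -0.086 and -0.082. Without both mice numbered 1, the WT mean was 0.432 and the Prmt9 KO mean 0.348, and the adjusted p of limma was still 0.45. The groups did not overlap there, and the share of all events that did the same was not computed. Of isoform shares over all genes, a different measure, 42.3% did not overlap in that setting.

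The 45-base exon of Grik1 had PSI values of 0.4596, 0.406 and 0.452 in WT and of 0.434, 0.378 and 0.361 in Prmt9 KO mice (limma adjusted p = 1.0). It too differed in one direction in 3 of 3 pairs, by -0.026, -0.028 and -0.091. The 2 Grik1 events share most of their transcripts, so they are not separate measurements. In all, 6 of the 10 events and 7 of the 16 shares differed in one direction in 3 of 3 pairs, against 31.9% of all events and 31.6% of all shares. Events and shares of a gene are built from the same transcripts, so these counts do not stand for separate measurements either.

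The Grik5 exon of 244 bases had PSI values of 0.162, 0.162 and 0.157 in WT and of 0.132, 0.148 and 0.139 in Prmt9 KO mice. It did not overlap between the genotypes, and the difference of the means was -0.020 (limma adjusted p = 1.0), below the limit of 0.05. The other event that did not overlap was the 3′ splice site choice between Neto1-201 and Neto1-202, with PSI values of 0.961, 0.578 and 0.571 in WT and of 0.523, 0.546 and 0.539 in Prmt9 KO mice. Here WT replicate 1 set most of the difference of -0.167 (limma adjusted p = 1.0), which was -0.032 without both mice numbered 1.

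The Grik2 exon of 87 bases had PSI values of 0.054, 0.094 and 0.083 in WT and of 0.065, 0.097 and 0.0998 in Prmt9 KO mice, counted against Grik2-202, Grik2-203 and Grik2-207 (limma adjusted p = 1.0). The same exon counted between the minor transcripts Grik2-209 and Grik2-205 had PSI values of 0.852, 0.817 and 0.855 in WT and of 0.920, 0.611 and 0.709 in Prmt9 KO mice (limma adjusted p = 1.0). These 2 transcripts summed to only 1.55 to 3.09 TPM, and both remaining Grik2 events, of 139 bases and of 2 bases, count at least 1 of them (limma adjusted p = 1.0 for each). The Neto2 segment of 21 bases had PSI values of 0.215, 0.399 and 0.338 in WT and of 0.225, 0.340 and 0.324 in Prmt9 KO mice (limma adjusted p = 1.0). The mouse numbered 1 was lowest in both genotypes. A 5′ splice site extension of 25 bases in Grik5 (chr7:25067985-25068009, reverse strand), which marks the other Grik5 transcript annotated for nonsense-mediated decay, had PSI values between 0.031 and 0.072 in the 6 mice (limma adjusted p = 1.0).

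**Figure D4:**
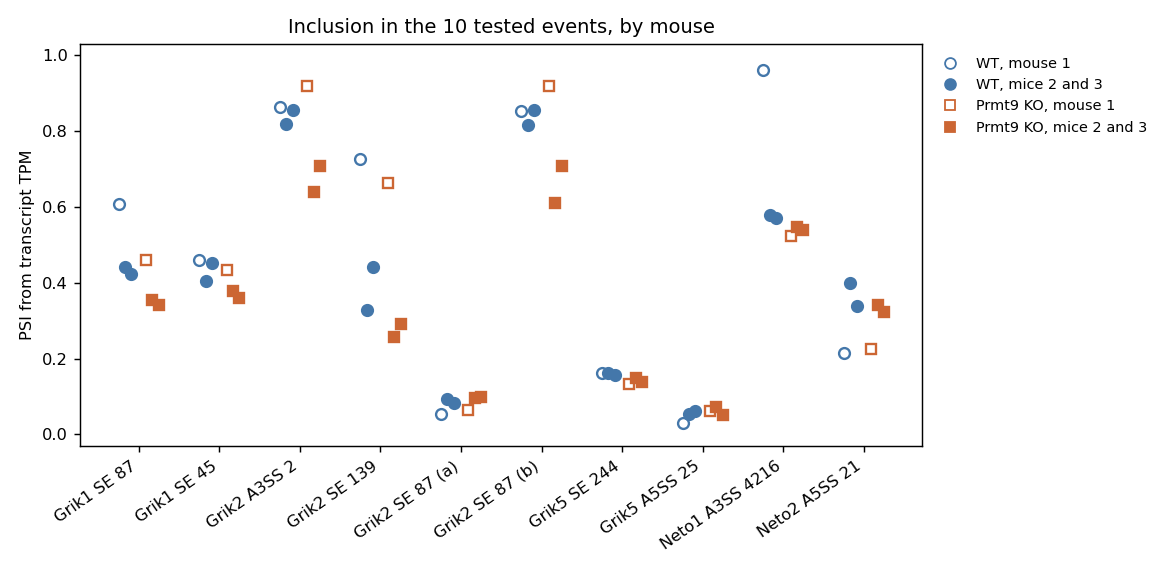
PSI computed from transcript TPM for the 10 tested events, with 1 point per mouse and open points for the mice numbered 1; labels give the gene, the event type (SE for exon skipping, A5SS and A3SS for alternative 5′ and 3′ splice sites) and the length in bases, and (a) and (b) mark the Grik2 exon counted against the main and against the minor transcripts. Prmt9 KO points lie wholly below WT points in the Grik5 exon of 244 bases and in the Neto1 event.

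Genes that act with the receptors were followed as a list of 23 partners, of which 22 were measured and Klhl17 was not analysed here. Of the 22, 0 passed an adjusted p below 0.01 and 0 had an unadjusted p below 0.05 in edgeR. The log2 fold change was above 0 for 10 and below 0 for 12, with a median of -0.03. Among the scaffolds, Sdcbp, which codes for the PDZ protein syntenin, had a log2 fold change of -0.15 (SE 0.11, edgeR adjusted p = 1.0), and Pick1, which binds the tails of several receptor subunits, had 0.10 (SE 0.09, edgeR adjusted p = 1.0). Dlg4, which codes for PSD-95 and is the second most abundant of the list by the WT mean, was at 479.9 ± 95.5 TPM in WT and 457.5 ± 62.3 TPM in Prmt9 KO mice (SD, n = 3 each), and its log2 fold change was -0.08 (edgeR adjusted p = 1.0).

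Among the adhesion partners, C1ql2, a secreted protein of mossy fibre terminals that recruits kainate receptors, was at 24.8, 44.8 and 43.0 TPM in WT and at 13.4, 37.5 and 35.5 TPM in Prmt9 KO mice. The mice numbered 1 had the lowest value of each genotype, and the groups overlapped over the 6 mice. Between mice of the same number, log2 CPM of C1ql2 differed by -1.11, -0.25 and -0.29, lower in the Prmt9 KO mouse in 3 of 3 pairs. Over all genes tested, 32% differed in one direction in 3 of 3 pairs. The log2 fold change of C1ql2 was -0.45 (SE 0.36, edgeR adjusted p = 1.0), the lowest of the 22. Cdh2, which codes for N-cadherin, had a log2 fold change of 0.07 (SE 0.09, edgeR adjusted p = 1.0). Snap25, the SNARE protein that takes part in removing GluK5 from the surface and the most abundant of the list, was at 517.0, 1269 and 1233 TPM in WT and at 781.5, 1250 and 1132 TPM in Prmt9 KO mice, with a log2 fold change of 0.02 (edgeR adjusted p = 1.0).

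The gene whose profile over the 6 mice was nearest to that of each member was looked up among 20334 other genes, by the root mean square difference of log2 CPM after centring. For Grik4, the nearest was Grik5, at 0.018. For Grik5, it was Plcb3, at 0.017, for Grik2 Magi3, at 0.017, for Neto1 Klhl32, at 0.019, and for Grik3 Wdr66, at 0.023. Grik1 and Neto2, which varied most, had their nearest genes farther off, Hat1 at 0.048 and Lrrn3 at 0.041. These values describe 6 libraries that share the split of the mice numbered 1, and carry no test.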

How the data were processed

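Polyadenylated RNA of 6 hippocampi was sequenced by the authors with paired-end reads from a stranded kit. The authors deposited, for each mouse, kallisto's estimated counts and TPM (abundance scaled for length and depth) for 118783 transcripts, besides a gene-level TPM table. The submitters' processing notes name kallisto 0.46.0 and STAR 2.7.1a, and the study's methods name another kallisto version. How kallisto used strand is not given in the sources used here. Transcripts were matched by identifier to GENCODE M21 (GRCm38), and the 2073 unmatched were left out. The members and lists were chosen with earlier results of these data known.

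Estimated counts were summed over genes, rounded and compared with edgeR 4.0.16 (quasi-likelihood test, TMM, default filter, Benjamini-Hochberg adjustment), with limits of 0.01 on the adjusted p and 1.5 on the fold change. diffSpliceDGE tested the use of transcripts. Annotated events were tested with limma 3.58.1 on log2((including TPM + 0.1)/(excluding TPM + 0.1)), for events with 1 TPM or more per mouse and a group mean PSI of 0.05 to 0.95. Shares were compared by an exact permutation test. Alternatives used DESeq2 1.42.0, RLE factors, no filter, limma on TPM, a replicate block, a term for the mice numbered 1 and leaving out mice. The scripts were tested on simulated data. Named were transcripts with a mean share of at least 10% in a multi-transcript gene or a usage p below 0.05, up to 3 events per gene with the smallest p, 1 nearest gene per member, and the 4 partners with the smallest p and the 2 most abundant. The fourth tested Grik2 event was added after its values were seen.

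The labels name no pairs, and the main tests used no block. The replicate numbers were treated as pairs only in the block and in differences between mice of the same number. Deviations from the group means correlated by 0.55, 0.42 and 0.38 between mice of the same number. Mice numbered 2 and 3 correlated as well across numbers, by 0.41 and 0.40, so the numbers mainly set the mice numbered 1 apart. Depth is the total of estimated counts per mouse, given with the results, and p-values measure the spread between these mice alone.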

Additional observations from a re-analysis of the deposited data

How the results depend on the processing

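Counts over all genes depended on the setting. Gene calls went from 0 to 2 with the DESeq2 Wald test, 1 with the term for the mice numbered 1 and 1 without both mice numbered 1, a setting chosen after seeing the data; with each single mouse left out they stayed at 0. With the replicate block, gene calls were 0, event calls were 0 and usage calls fell from 22 to 12 genes, and the block changed no other call. Usage calls were 3 with limma diffSplice, 1 with at least 10 counts in every mouse, 52 with the term for the mice numbered 1, 230 without both of them, and 6 to 139 with 1 mouse left out, with 139 without WT replicate 1 and 6 without Prmt9 KO replicate 3. Event calls stayed at 0 throughout. Of the 16 shares, 1 did not overlap between genotypes, 2 with estimated counts, 2 of those among protein-coding transcripts alone, 8 without both mice numbered 1 and 1 to 6 with 1 mouse left out (6 without Prmt9 KO replicate 1), where fewer mice overlap less often by construction. No member was called in any of these settings. Signs turned without both mice numbered 1 for Grik2 (-0.030), Grik3 (-0.055) and Neto2 (-0.046). With 1 mouse left out, log2 fold changes ranged from -0.017 to 0.45 for Grik1, -0.095 to 0.14 for Grik2 and -0.16 to 0.25 for Neto2, and PSI differences from -0.224 to 0.019 for the Grik2 exon of 139 bases and -0.072 to 0.020 for the Neto2 segment. The cause was not tested. Prmt9 itself passed the limits with DESeq2, with the term for the mice numbered 1 and without them, with log2 fold changes of -1.71, -1.71 and -1.67. Estimates per transcript, not junction reads, limit what the shares and PSI of overlapping transcripts can show.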
